A study of Mus musculus with 18 samples.

Results

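The regions described are stretches of mouse autosomal DNA, 1000 bp long, that are rich in CpG and nevertheless methylated when the cells carry WT DNMT1. The autosomes were cut into tiles of 1000 bp, and a tile was used when at least 3 of its CpGs had at least 5 reads in each of the 18 libraries. A tile counted as CpG-dense when its usable CpGs had a median of over 20 CpGs within 250 bp on either side, and as methylated when 50% or more of its pooled WT reads were methylated. Of 27000 CpG-dense autosomal tiles 3907 met the WT threshold, which is 14.5% of the CpG-dense tiles and 2.51% of the 155660 tiles on all chromosomes. The tiles were thus chosen by their measured WT level, so their WT values and their differences from WT are given only as a description.

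The cells are mouse embryonic stem cells that lack their own Dnmt1 and were transfected with a pPyCAGIP vector carrying DNMT1, then kept under puromycin. The 6 groups carry WT DNMT1, W796A, W465A, W464A/W465A, W465A/W796A or W464A/W465A/W796A, in which the named tryptophans are replaced by alanine, and each group has 3 libraries. The assay was eRRBS, an enhanced form of reduced representation bisulfite sequencing, in which DNA is cut with MspI, BfaI and MseI and unmethylated cytosines are converted before sequencing. All groups therefore share the Dnmt1 deletion, the vector and the selection, and cells given the empty vector are not analysed here. Several stable lines were made for each group, but the labels do not say whether the 3 libraries of a group are separate lines, so the p-values below measure the spread between these libraries. Neither the amount of DNMT1 nor markers of the cell type can be read from this assay.

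DNMT1 restores CpG methylation on the newly made strand after each round of DNA replication. The residues changed in W464A and W465A lie in its RFTS domain, and the residue changed in W796A lies in the first of its BAH domains, and both kinds of domain bind chromatin. Most CpG-dense DNA in mammals is unmethylated and sits at promoters. Known exceptions in mouse embryonic stem cells are the promoters of genes used only in germ cells, many coding exons, and the repeats left by endogenous retroviruses.

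The following stretches show what kinds of sequence are involved, each taken on the + strand of the RefSeq copy of GRCm38 from within a methylated CpG-dense tile and outside annotated untranslated regions. Capitals mark the CpGs. The promoter tiles of Dazl (chr17:50293663-50293962) and Dpep3 (chr8:105979432-105979731) are shown because they had the most usable CpGs of the germline promoters. The stretch beside the Sfta3-ps pseudogene (chr12:56528683-56528982) had one of the deepest losses when W465A was added to W796A. The coding exon of Klhl25 (chr7:75865600-75865899) kept the highest level in W465A among tiles with 10 or more usable CpGs, and that of Znfx1 (chr2:167055660-167055959) had one of the largest gains when W796A was added to W465A. The last 2 are repeat-masked, an intergenic stretch whose nearest gene is Ptger4 (chr15:5379336-5379635), with a deep loss when W464A was added to W465A/W796A, and an intron of Nav3 (chr10:110015545-110015844), with the largest gain over W796A.
Dazl promoter: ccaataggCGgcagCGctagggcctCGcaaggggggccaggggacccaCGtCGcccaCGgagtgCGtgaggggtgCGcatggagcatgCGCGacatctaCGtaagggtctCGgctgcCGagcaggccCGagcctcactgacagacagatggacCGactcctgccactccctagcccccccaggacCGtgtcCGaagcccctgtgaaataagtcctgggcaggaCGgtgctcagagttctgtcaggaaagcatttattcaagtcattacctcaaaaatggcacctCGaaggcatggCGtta
Dpep3 promoter: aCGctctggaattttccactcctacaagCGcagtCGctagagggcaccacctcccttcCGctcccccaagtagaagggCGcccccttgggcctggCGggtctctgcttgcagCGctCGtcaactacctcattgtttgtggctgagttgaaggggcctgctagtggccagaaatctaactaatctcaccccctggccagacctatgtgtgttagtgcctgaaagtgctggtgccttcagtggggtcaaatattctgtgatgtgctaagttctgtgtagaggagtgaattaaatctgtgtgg
Sfta3-ps promoter: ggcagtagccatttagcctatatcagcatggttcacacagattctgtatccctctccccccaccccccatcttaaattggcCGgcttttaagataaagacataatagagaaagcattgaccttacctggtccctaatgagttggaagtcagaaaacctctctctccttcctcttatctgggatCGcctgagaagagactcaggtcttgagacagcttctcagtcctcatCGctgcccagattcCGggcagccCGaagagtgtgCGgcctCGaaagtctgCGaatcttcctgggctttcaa
Klhl25 coding exon: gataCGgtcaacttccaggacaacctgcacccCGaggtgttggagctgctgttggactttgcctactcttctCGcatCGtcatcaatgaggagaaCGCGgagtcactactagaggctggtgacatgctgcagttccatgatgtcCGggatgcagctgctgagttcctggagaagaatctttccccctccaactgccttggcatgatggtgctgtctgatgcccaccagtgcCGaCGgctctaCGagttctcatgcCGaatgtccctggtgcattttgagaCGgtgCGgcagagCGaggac
Znfx1 coding exon: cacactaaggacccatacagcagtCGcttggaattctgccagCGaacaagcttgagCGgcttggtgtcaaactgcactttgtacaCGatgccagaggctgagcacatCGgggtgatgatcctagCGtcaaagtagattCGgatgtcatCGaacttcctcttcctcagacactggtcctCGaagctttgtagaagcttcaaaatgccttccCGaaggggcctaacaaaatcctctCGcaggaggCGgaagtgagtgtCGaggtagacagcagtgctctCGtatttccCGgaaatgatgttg
Intergenic repeat near Ptger4: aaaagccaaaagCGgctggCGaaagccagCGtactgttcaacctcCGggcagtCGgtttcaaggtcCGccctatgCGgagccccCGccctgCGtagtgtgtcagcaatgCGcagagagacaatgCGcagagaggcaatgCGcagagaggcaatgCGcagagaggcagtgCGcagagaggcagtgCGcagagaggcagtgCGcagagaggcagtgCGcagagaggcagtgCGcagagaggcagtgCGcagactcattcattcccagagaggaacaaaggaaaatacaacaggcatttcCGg
Nav3 intron repeat: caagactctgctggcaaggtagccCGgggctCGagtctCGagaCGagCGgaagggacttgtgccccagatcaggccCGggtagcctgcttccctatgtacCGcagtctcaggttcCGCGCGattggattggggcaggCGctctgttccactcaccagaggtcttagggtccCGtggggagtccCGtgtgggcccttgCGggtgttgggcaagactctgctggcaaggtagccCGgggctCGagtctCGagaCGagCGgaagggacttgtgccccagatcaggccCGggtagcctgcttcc

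The shallowest library, WT replicate 3, had 59776439 CpG calls and the deepest, WT replicate 2, had 138978763, and 1424423 CpGs were usable. The 3907 tiles held 37141 of these CpGs, with a median of 8 and a range of 3 to 52 per tile. A tile had a median of 156 reads in a library and never fewer than 15, against a median of 70 over all tiles. The median GC content was 52.4%. By the annotation of most of their CpGs, 1733 tiles were intergenic, 1089 were in coding exons, 841 in introns, 161 at promoters (within 500 bp of a start site), 59 in untranslated regions and 24 in exons of noncoding genes. In 1881 tiles (48.1%) more than 50% of the usable CpGs were soft-masked in the reference and so lie in known repeats, in 1779 tiles none were, and 247 were mixed. The 23093 CpG-dense tiles under 50% in WT were 66.5% promoters and only 4.72% repeat-masked.

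WT replicate 3 was the lowest WT library in the repeat-masked tiles of the set but not in the others. At the repeat-masked tiles WT replicates 1 and 2 were at 62.4% and 78.5% and WT replicate 3 was at 58.5%. In the tiles with no repeat-masked CpG, WT replicate 3 was instead between the others, at 70.85% against 57.4% and 79.7%. It was also between them in 11752 repeat-masked tiles that are methylated but not CpG-dense, at 81.25% against 69.5% and 82.9%. In 810 tiles of the set more than 50% of the 31-base words occur in at least 10 of the 3907 tiles. There WT replicate 3 was further below the others, at 47.2% against 57.9% and 75.9%. WT replicate 3 was also the shallowest library, and the part of its depth in these values was not tested. Choosing the tiles without it gave 4325 tiles, over which the mean level was 67.6% in WT, 60.1% in W796A, 22.55% in W465A and 49.2% in W465A/W796A. The means were then 16.0% for W464A/W465A and 19.2% for the triple mutant, W464A/W465A/W796A. With that choice 59.2% were called when W796A was added to W465A, 88.7% when W464A was added to W465A/W796A, 23.3% when W465A was added to W796A and 86.8% when W464A/W465A was added to W796A, by the comparisons given below.

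Mean methylation over these tiles was lowest in the forms with W464A, low in W465A, and intermediate in W465A/W796A, which carries W796A beside W465A. The level of a library is the mean over tiles of methylated over all reads. With WT it was 59.97%, 79.2% and 65.0% in replicates 1 to 3, which is 68.0% ± 9.96 (SD, n = 3). With W796A it was 48.3%, 76.65% and 65.3%, or 63.4% ± 14.3 (SD, n = 3), so these libraries overlapped those of WT. W465A libraries were at 31.6%, 18.8% and 20.4%, or 23.6% ± 6.97 (SD, n = 3). Those of W464A/W465A were at 15.6%, 19.12% and 15.3%, or 16.65% ± 2.14 (SD, n = 3). W465A/W796A libraries lay between the high and the low groups, at 57.7%, 44.05% and 50.2%, or 50.65% ± 6.82 (SD, n = 3). The triple mutant was at 16.55%, 23.6% and 19.3%, or 19.8% ± 3.56 (SD, n = 3). In order, W464A/W465A, the triple mutant and W465A each overlapped the next, W465A/W796A was above all their libraries, and it was crossed by the lowest W796A library but reached no WT library.

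**Figure D1:**
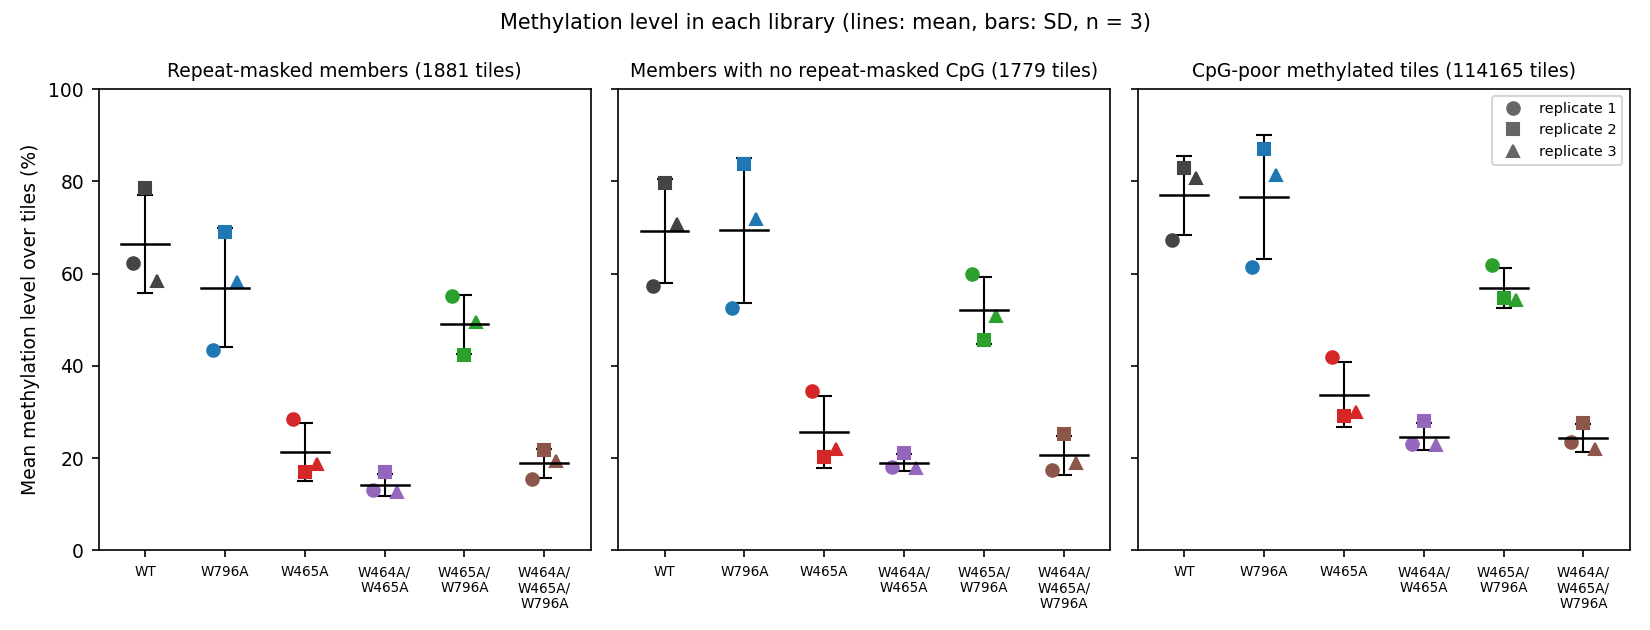
Mean methylation level (y axis, %) in each of the 18 libraries, by DNMT1 form (x axis), for repeat-masked methylated CpG-dense tiles (left), those with no repeat-masked CpG (middle) and CpG-poor methylated tiles (right); lines are means and bars SD of 3 libraries. W796A averaged 57.0% in the repeat-masked tiles and 69.4% in those with no repeat-masked CpG, while the W465A/W796A means were 49.05% and 52.0%.

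The plot of levels by library separates the repeat-masked tiles of the set from its other tiles, and W796A differed most between them. In the repeat-masked tiles W796A libraries were at 43.5%, 69.1% and 58.3%, or 57.0% ± 12.8 (SD, n = 3), 85.8% of the WT mean. In the tiles with no repeat-masked CpG they were at 52.6%, 83.8% and 71.85%, or 69.4% ± 15.7 (SD, n = 3), 100.1% of the WT mean. In each W796A library the repeat-masked tiles were thus the lower class. In the 810 tiles of shared 31-base words W796A was at 35.7%, 60.2% and 46.6%, or 47.5% ± 12.3 (SD, n = 3), and W465A/W796A at 54.5%, 39.5% and 48.9%, or 47.6% ± 7.58 (SD, n = 3). W465A was at 21.35% ± 6.20 (SD, n = 3) in repeat-masked tiles and 25.64% ± 7.76 (SD, n = 3) in the others. W464A/W465A was at 14.2% ± 2.37 (SD, n = 3) and 19.02% ± 1.87 (SD, n = 3), and the triple mutant at 18.9% ± 3.15 (SD, n = 3) and 20.6% ± 4.18 (SD, n = 3).

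Single tiles spread widely within a group. The pooled level of a tile ran from 9.20% to 95.2% with W796A, with a median of 68.2%, and 2921 tiles stayed at 50% or more. With W465A the median was 22.15%, the range 2.40% to 71.9%, and 79 tiles stayed at 50% or more. With W464A/W465A the median was 15.2%, the range 0.685% to 56.25%, 6 tiles stayed at 50% or more, and 844 fell below 10%. W465A/W796A kept 2105 tiles at 50% or more, with a median of 51.0% and a range of 7.15% to 94.2%. The triple mutant kept 15 at that level and had 421 below 10%, with a median of 18.2%. Levels below 10% were almost all in forms with W464A or with W465A alone, since W796A and W465A/W796A had 1 such tile each and W465A had 151.

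**Figure D2:**
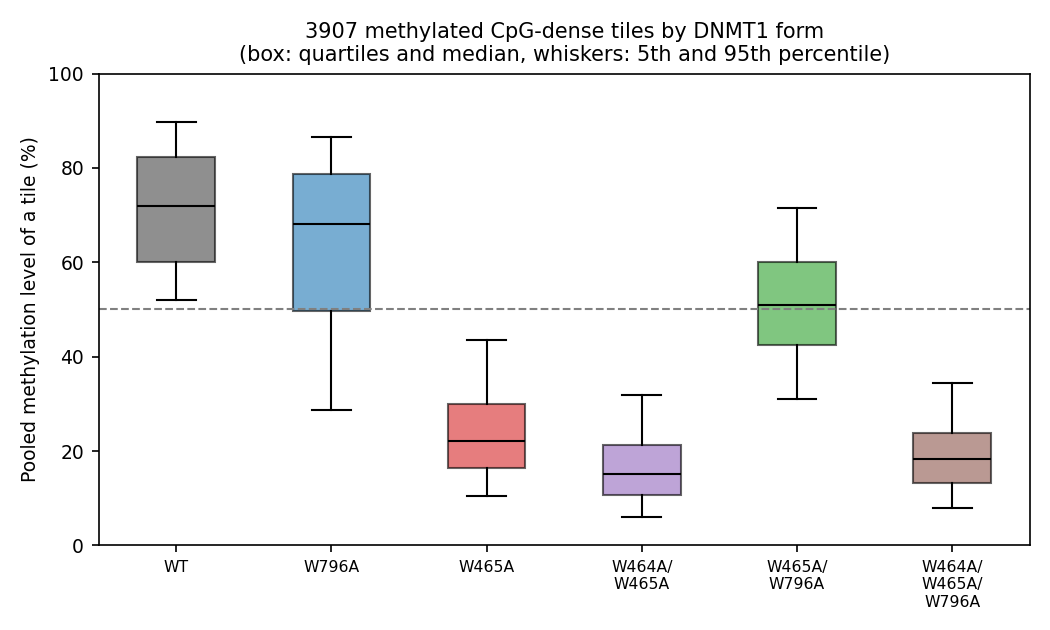
Pooled methylation level of the 3907 methylated CpG-dense tiles (y axis, %) by DNMT1 form (x axis); boxes give quartiles and median, whiskers the 5th and 95th percentile, and the dashed line marks the 50% that chose the tiles in WT. The medians were 71.9% (WT), 68.2% (W796A), 22.15% (W465A), 15.2% (W464A/W465A), 51.0% (W465A/W796A) and 18.2% (triple mutant).

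The comparison with WT uses the values that chose the tiles, so its counts are given with no reading. A tile was called when the adjusted p of a quasi-binomial model over all 155660 tiles (Benjamini-Hochberg) was under 0.05 and the pooled levels differed by at least 10 points. By that rule 3884 of the 3907 tiles were lower in W465A, 3906 in W464A/W465A, 3899 in the triple mutant and 1265 in W465A/W796A. Over all tiles W465A had 82.8% called lower and 0.000642% higher, W464A/W465A had 84.5% and 0.000642%, the triple mutant had 84.6% and 0.0%, and W465A/W796A had 24.2% and 0.00128%. No tile of the set was called in W796A by this model (0.0% of all tiles lower and 0.00385% higher), with 719 at an unadjusted p under 0.05; limma and edgeR were not run on this comparison. Same-numbered libraries of WT and W796A deviated together, and with the replicate number as a block 2 tiles (0.0512%) were lower in the fit of all groups, with 613 at an unadjusted p under 0.05, and 0 in the fit of these 2 groups, with 675.

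Adding W796A to W465A raised methylation. In the comparison of W465A/W796A with W465A, which uses no WT library, 2328 of the 3907 tiles (59.6%) were higher and 0 lower, beside 26.3% of all tiles called higher and 0.00257% called lower. The median difference was 27.2 points, against 20.2 points over all tiles and 23.3 points in the 114165 methylated tiles that are not CpG-dense, of which 31.4% were called. Median depth was 156 reads in the CpG-dense and 60 in these CpG-poor tiles, and its part in the shares called was not tested. Repeat-masked tiles were called in 64.4% of cases and tiles with no repeat-masked CpG in 54.3%, with medians of 27.4 and 26.65 points. The count rests on several libraries. It fell to 0 when W465A replicate 3 or W465A/W796A replicate 1 was left out, to 11.6% without W465A replicate 2 and to 32.35% when W465A/W796A replicate 3 was left out, while 2324, 2179, 2671 and 2844 tiles respectively had an unadjusted p under 0.05. Over all alternatives the share also fell to 27.75% with limma and 24.9% without squeezing the overdispersion.

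The 3 tiles named here had the largest gains among called tiles whose libraries do not overlap, so the lack of overlap was chosen. In a coding exon of Dlc1 W465A libraries were at 31.4%, 2.04% and 9.70% and W465A/W796A libraries at 85.5%, 59.2% and 74.0%. The pooled difference was 60.4 points (adjusted p 0.0131, quasi-binomial model). In the Znfx1 exon shown above, whose gene encodes a zinc finger protein with a helicase domain, the values were 31.03%, 1.67% and 5.50% against 74.7%, 69.7% and 77.2%, a difference of 58.2 points (adjusted p 0.012). A repeat-masked intergenic tile whose nearest gene is Fam84a went from 17.5%, 11.1% and 12.6% to 69.8%, 85.5% and 71.8%, a difference of 60.1 points (adjusted p 0.012).

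The same substitution gave no call in the W464A/W465A background. Between the triple mutant and W464A/W465A the quasi-binomial model called 0 of the 3907 tiles (0.0% over all tiles), where 42 had an unadjusted p under 0.05, and limma and edgeR also called 0, with 84 and 80 at an unadjusted p under 0.05. The median difference was 2.44 points, and the middle 90% of tiles lay between -6.04 and 11.3 points. At the Dlc1 exon the difference was 4.003 points and at the Znfx1 exon -8.03 points, each with an adjusted p of 1.0. A direct test asked whether the W796A difference is unlike beside W465A and beside W464A/W465A, on the logit scale and in either direction. It called 0 of the set (0.0% of all tiles) in the fit of all groups. In points, a scale on which the gap was not tested, the median gap was 24.4 and 3872 of 3907 tiles had a positive gap. In the logit test 892 tiles had an unadjusted p under 0.05, and limma and edgeR called 0, with 806 and 995 at an unadjusted p under 0.05. When the compared groups were fitted alone 557 tiles (14.3%) were called.

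W464A lowered methylation where W796A was present. From W465A/W796A to the triple mutant 3443 of the 3907 tiles (88.1%) fell and 0 rose, beside 68.4% of all tiles called lower and 84.4% of the CpG-poor methylated ones. The median difference was -31.8 points, against -29.9 points over all tiles. This comparison and that of W465A/W796A with W465A share the W465A/W796A libraries. Without W465A/W796A replicate 1, the highest of its group, the share was 57.2%.

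In the intergenic repeat near Ptger4 shown above, W465A/W796A libraries were at 72.9%, 77.8% and 85.3% and the triple mutant at 4.47%, 6.67% and 23.3%. The difference of -66.4 points had an adjusted p of 0.0013 (quasi-binomial model), and W465A libraries stood between, at 40.7%, 24.7% and 32.2%. In a coding exon of Son, which encodes a splicing protein of nuclear speckles, the levels were 85.4%, 71.4% and 57.4% in W465A/W796A and 6.25%, 15.6% and 15.3% in the triple mutant (-62.5 points, adjusted p 0.00296). A repeat-masked tile 9649 bp from Btnl6 went from 80.0%, 52.0% and 80.0% to 10%, 5.41% and 10.9% (-62.3 points, adjusted p 0.000855).

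Without W796A the same addition gave no call. From W465A to W464A/W465A the quasi-binomial model called 0 of 3907 tiles (0.0% over all), where 332 had an unadjusted p under 0.05, and limma and edgeR called 0, with 245 and 279 at an unadjusted p under 0.05. The median difference was -6.88 points and 3521 of the 3907 tiles had a negative difference, against a median of -6.18 points over all tiles. In the Ptger4 repeat W464A/W465A libraries were at 9.77%, 12.2% and 5.62%, which is below all 3 W465A libraries, but the adjusted p was 0.617. The direct test given above is equally the test of whether the W464A difference is unlike with and without W796A. In the fit of all groups it called 0 of the set.

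**Figure D3:**
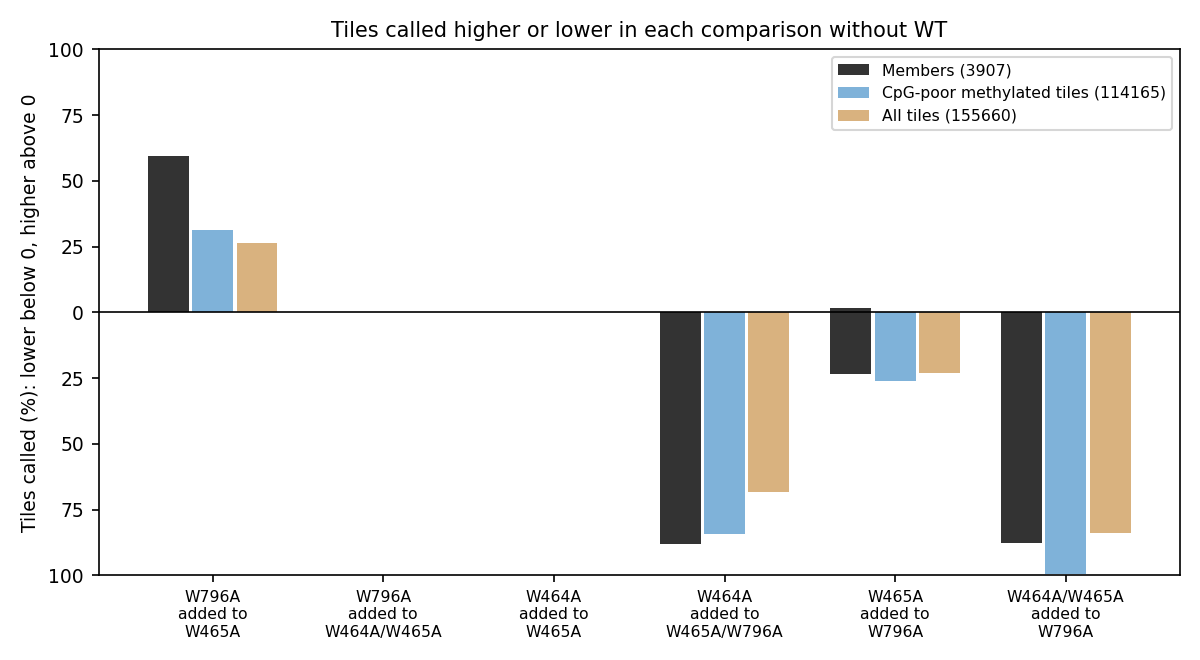
Share of tiles (y axis, %) called higher (above 0) or lower (below 0) in each comparison of DNMT1 forms that uses no WT library (x axis), for the 3907 methylated CpG-dense tiles, the 114165 CpG-poor methylated tiles and all 155660 tiles. The set had 59.6% higher when W796A was added to W465A, 88.1% lower when W464A was added to W465A/W796A, and no calls when W796A was added to W464A/W465A or W464A to W465A.

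Adding W465A to W796A moved the set in both directions. In the comparison of W465A/W796A with W796A 923 tiles (23.6%) were lower, beside 23.0% of all tiles. Another 71 (1.82%) were higher, beside 144 (0.0925%) of all tiles called higher. All 71 were repeat-masked, and they made up 3.775% of the 1881 repeat-masked tiles of the set. Such calls were not particular to the set. Among the 1091 repeat-masked CpG-dense tiles under 50% in WT, 28 (2.566%) were higher and 13 (1.192%) lower. The median difference in those 1091 tiles was 1.925 points, and 647 of them had a higher level in W465A/W796A. Within the set the median difference was -9.56 points in the repeat-masked tiles and -16.5 points in those with no repeat-masked CpG. Of the 923 lower tiles 470 were repeat-masked (24.99% of 1881), 399 had no repeat-masked CpG (22.4% of 1779, with 0 higher), and the rest were partly masked. In the repeat-masked tiles 718 of 1881 had a higher level in W465A/W796A than in W796A, against 70 of 1779 tiles with no repeat-masked CpG. The share called in either direction, 25.4%, depended on W796A libraries, which spread most. It was 63.5% without W796A replicate 1, the lowest library, 4.94% without W796A replicate 2 and 11.1% without W796A replicate 3. It was 11.1% without W465A/W796A replicate 2, 8.47% without W465A/W796A replicate 3, 15.5% with limma, 13.7% without squeezing, and 0 when these 2 groups were fitted alone, where 1211 tiles had an unadjusted p under 0.05.

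**Figure D4:**
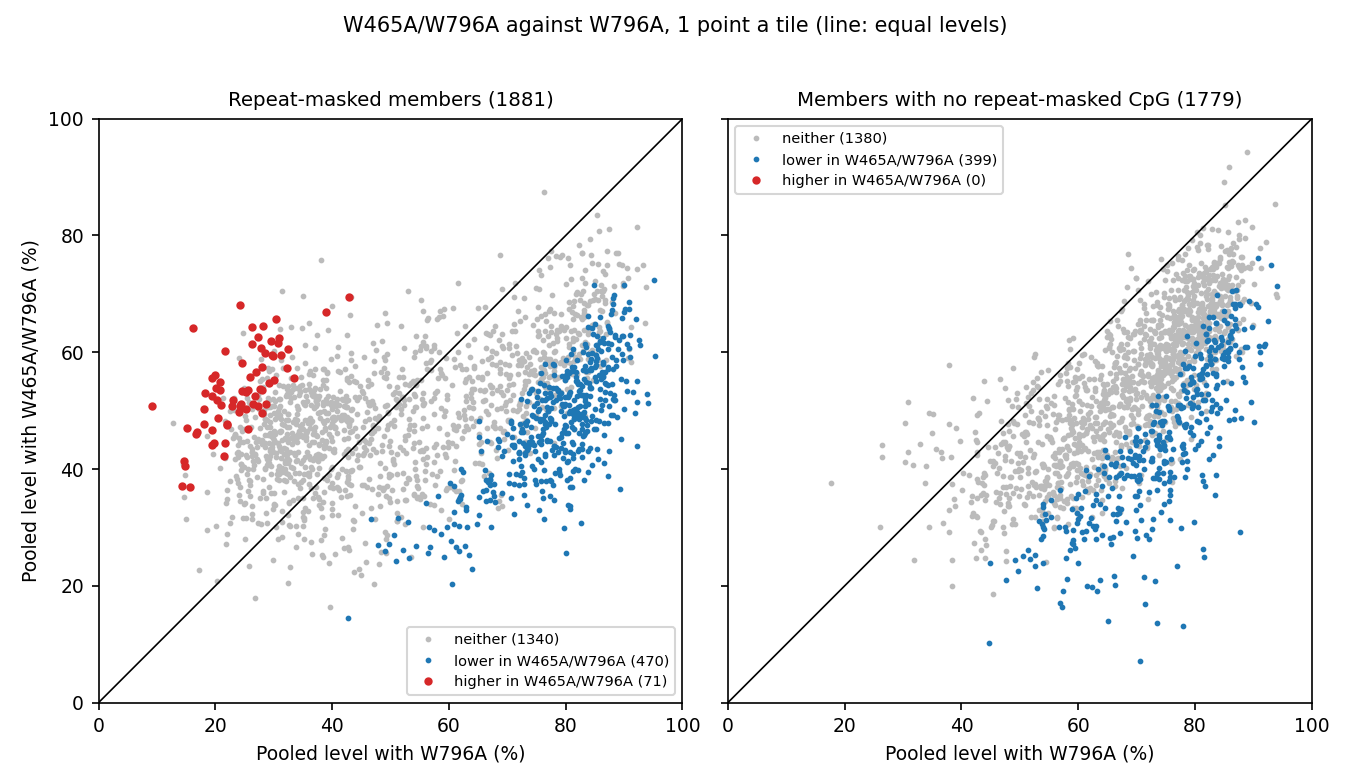
Pooled methylation level with W796A (x axis, %) and with W465A/W796A (y axis, %) in 1881 repeat-masked tiles (left) and 1779 tiles with no repeat-masked CpG (right), 1 point a tile, coloured by the call between both forms; the line marks equal levels. The 71 red tiles, higher in W465A/W796A, are all in the left panel at low W796A levels.

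Over the 71 tiles the W796A libraries were at 19.5%, 32.8% and 21.4% and the W465A/W796A libraries at 61.0%, 43.3% and 55.5%, values that the call itself chose. The groups the call did not use were at 27.02%, 17.25% and 17.0% with W465A and at 14.9%, 17.2% and 12.4% with W464A/W465A, and the triple mutant was at 15.3%, 23.1% and 23.5%. WT replicate 3 was at 29.6% in these tiles, against 57.2% and 73.5% in WT replicates 1 and 2, so it lay within the range of W796A. Median depth over the 71 tiles was 217 to 342 reads in W796A and 201 to 228 in W465A/W796A. The 71 tiles lie on 19 chromosomes, and a median of 60.8% of their 31-base words occur in at least 10 tiles of the set. The word that most tiles of the set share is this one, shown because 66 of the 71 tiles hold it, as do 689 tiles of the set, all 689 repeat-masked.
Most shared word of 31 bases: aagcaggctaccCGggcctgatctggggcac
Tiles holding it were at 38.9% ± 11.3 (SD, n = 3) with W796A, 49.0% ± 8.44 (SD, n = 3) with W465A/W796A and 20.2% ± 5.95 (SD, n = 3) with W465A. The Nav3 stretch above holds it 2 times on the other strand. Tiles that share sequence are not independent of each other, and the part of read placement among such copies was not tested. The number of such tiles was 14 with limma, 41 with edgeR, 0 with the 2 groups fitted alone, 7 without W465A/W796A replicate 3, 11 without W465A/W796A replicate 1, 18 without W796A replicate 3, 30 without W796A replicate 2, 25 of 2745 without WT replicate 2 and 178 of 4325 without WT replicate 3.

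The 3 tiles with the largest of these gains were picked after their values were seen. In the Nav3 intron W796A libraries were at 10.9%, 22.6% and 18.8% and W465A/W796A libraries at 73.0%, 54.5% and 67.2%, a difference of 47.9 points (adjusted p 0.0106, quasi-binomial model). WT was at 63.7%, 86.6% and 14.9% there, with replicate 3 at the W796A level. A repeat 153095 bp from Nup35, of whose 31-base words 98.4% are shared in that way, went from 28.2%, 35.7% and 10.6% to 84.1%, 48.9% and 82.0% (adjusted p 0.01). A repeat 11950 bp from Olfr332 went from 5.56%, 17.6% and 5% to 60.8%, 28.8% and 61.3% (adjusted p 0.0132), and WT replicates there were at 73.3%, 75.9% and 20.8%.

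The 3 tiles named for their losses in the same comparison had no repeat-masked CpG, although the 923 lower tiles include 470 repeat-masked ones. At the promoter shared by Fv1, a restriction gene against murine leukaemia viruses, and Miip, W796A libraries were at 54.2%, 83.0% and 70.2% and W465A/W796A libraries at 9.75%, 7.59% and 2.92%. The difference was -63.4 points (adjusted p 0.000163), and this tile had the lowest W465A/W796A level among tiles with 10 or more usable CpGs. At the Sfta3-ps pseudogene, beside the transcription factor gene Nkx2-1, the levels were 77.5%, 92.5% and 67.3% against 5.83%, 26.6% and 12.3% (-64.8 points, adjusted p 0.00181). In an intergenic tile 48921 bp from Mef2c, a transcription factor gene, they were 40.8%, 93.7% and 77.4% against 13.2%, 18.5% and 10.99% (-59.9 points, adjusted p 0.00193). At these 3 tiles W465A/W796A was near W465A, whose libraries were at 5.07%, 2.86% and 5.04% at Fv1, 7.69%, 7.35% and 9.82% at Sfta3-ps and 8.93%, 11.9% and 10.4% near Mef2c. W796A added to W465A made a difference there of 2.57, 4.74 and 3.33 points, none of them called.

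With both RFTS substitutions added to W796A nearly all tiles outside repeats fell. From W796A to the triple mutant 3429 of the 3907 tiles (87.8%) were lower, beside 83.9% of all tiles, and 0 were higher. Of all tiles, 13.9% had a pooled W796A level under 10% and could not fall by 10 points, against 0.0256% of the set. CpG-poor methylated tiles also fell, from 76.6% ± 13.4 with W796A to 24.4% ± 2.95 in the triple mutant (SD, n = 3 each). The share of the set was 99.5% in the 1779 tiles with no repeat-masked CpG and 75.1% in the 1881 repeat-masked ones, with medians of -50.4 and -38.8 points. It was 61.6% in the 810 tiles of shared 31-base words, where W796A itself was lower. A repeat-masked tile 89151 bp from Pdgfd, with as few as 15 reads in a library, went from 84.6%, 89.6% and 100% to 14.3%, 2.56% and 0% (-85.1 points, adjusted p 7.15e-06). A repeat-masked tile 177866 bp from Adarb2 went from 82.5%, 96.0% and 84.6% to 6.90%, 1.56% and 4.29% (-84.5 points, adjusted p 1.48e-06). A tile outside repeats 347365 bp from Asrgl1 went from 85.7%, 99% and 92.9% to 8.33%, 15.9% and 11.2% (-83.6 points, adjusted p 5.6e-06).

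Promoters of germline genes were part of the set. Of 32 listed germline genes 26 had a tile at the promoter, 21 a CpG-dense one, and 12 a tile of the set. The list was chosen with earlier results of these data known. W796A added to W465A raised 7 of the 12, beside 59.6% of the set and 26.3% of all tiles. W464A added to W465A/W796A lowered 11, beside 88.1% and 68.4%. W465A added to W796A lowered 6, beside 23.6% and 23.0%, and W464A/W465A added to W796A lowered all 12, beside 87.8% and 83.9%. W796A added to W464A/W465A and W464A added to W465A had 0 calls each among the 12.

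Dazl encodes an RNA-binding protein that germ cells need, and its promoter tile had 40 usable CpGs and 686 to 2365 reads per library. WT libraries were at 62.8%, 84.1% and 77.3% and W796A libraries at 47.8%, 88.6% and 69.7%. W465A libraries were at 29.1%, 17.2% and 25.9% and W465A/W796A libraries at 56.2%, 46.9% and 53.6%, which do not overlap (26.3 points, adjusted p 0.025, quasi-binomial model). W464A/W465A was at 19.7%, 19.5% and 15.7% and the triple mutant at 17.1%, 30.6% and 15.7%, both below every W465A/W796A library. The difference between the triple mutant and W465A/W796A was -32.9 points (adjusted p 0.00297).

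Dpep3, a dipeptidase gene of the testis, was the most methylated promoter of the list, with 593 to 1500 reads per library. W465A libraries were at 39.5%, 33.4% and 31.5% and W465A/W796A libraries at 63.9%, 65.7% and 59.7% (28.7 points, adjusted p 0.022). Triple mutant libraries were at 27.8%, 36.0% and 34.3%, overlapping those of W465A. Fkbp6, an immunophilin gene needed in meiosis, had W465A libraries at 24.6%, 18.7% and 13.7% and W465A/W796A libraries at 54.4%, 50.5% and 52.3% (33.1 points, adjusted p 0.0152). W796A libraries there were at 55.8%, 92.4% and 88.2%, all above W465A/W796A, and this difference of -22.5 points was called (adjusted p 0.0468).

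Slc25a31, a mitochondrial ADP/ATP carrier gene of male germ cells, had W465A libraries at 16.7%, 4.80% and 12.9% and W465A/W796A libraries at 48.9%, 42.1% and 43.6% (30.9 points, adjusted p 0.0128). Sycp1, which encodes a protein of the synaptonemal complex, was at 31.3%, 16.3% and 17.4% with W465A and 46.2%, 38.2% and 51.6% with W465A/W796A (22.7 points, adjusted p 0.0338). Brdt, a bromodomain gene of spermatogenesis, was at 21.6%, 2.08% and 10.4% against 36.7%, 28.65% and 44.4% (23.1 points, adjusted p 0.0232). In all 6 of these promoters every W465A/W796A library was above every W465A library. The same held for library means over the whole set, at 44.05% to 57.7% against 18.8% to 31.6%, so it is not particular to these promoters. The other 6 genes, Tex101, Asz1, Spo11, Tdrd1, Hormad1 and Sycp3, had mean levels of 11.7% to 26.5% with W465A, 28.6% to 46.9% with W465A/W796A and 8.41% to 22.5% with the triple mutant. Of these, Hormad1 alone was called when W796A was added to W465A (31.1 points, adjusted p 0.0225), and Tdrd1 alone was not called when W464A was added to W465A/W796A (-11.5 points, adjusted p 0.201).

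**Figure D5:**
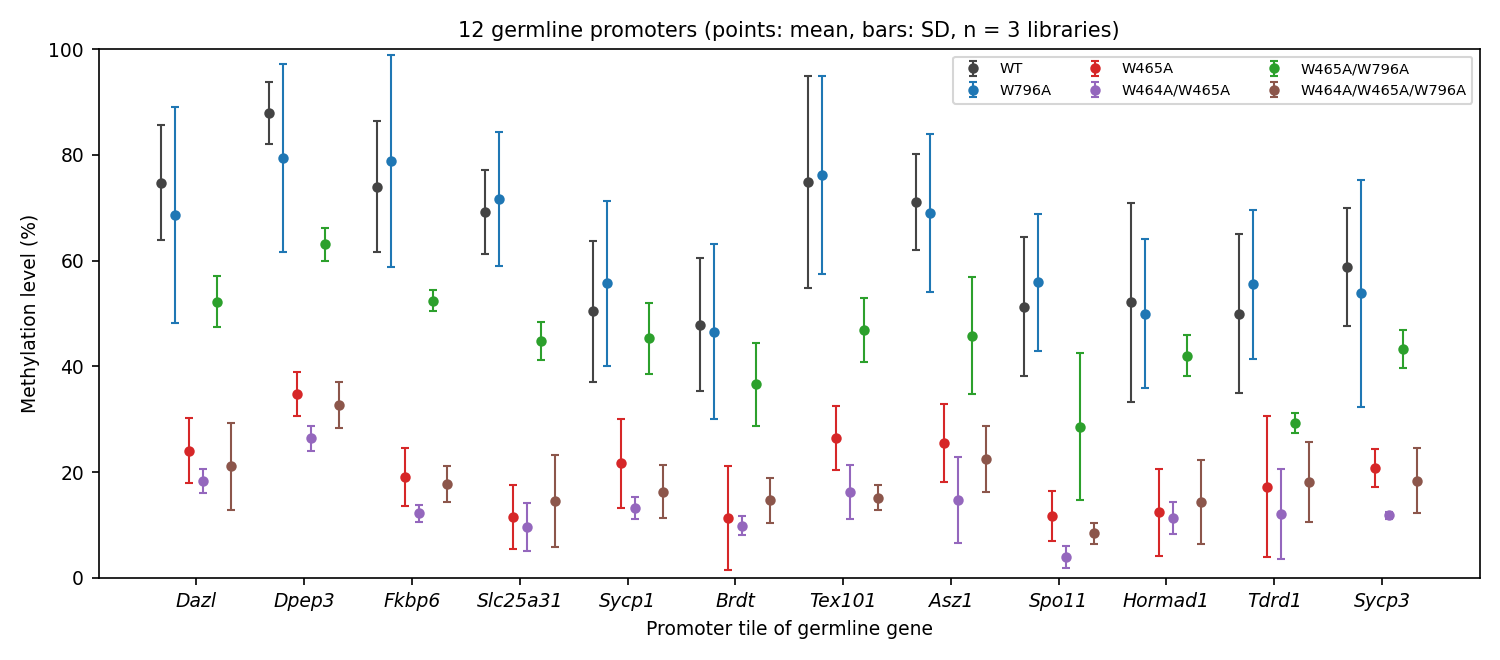
Methylation level (y axis, %) of the promoter tiles of 12 germline genes (x axis), ordered by usable CpGs, for each DNMT1 form; points are means and bars SD of 3 libraries. W465A/W796A means lie between 28.6% and 63.1%, above the W465A means of 11.35% to 34.8% at the same promoters.

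Promoter tiles of the other listed gene groups hardly entered the set. None of 16 covered maternally methylated imprinted loci, 3 paternally methylated ones, 9 pluripotency genes, 5 trophoblast and lineage genes and 38 Hox genes had a promoter tile in it. A CpG-dense promoter tile, which alone could enter, was present at 13, 2, 6, 4 and 37 of them, in that order. Tiles away from start sites were not searched for these lists. The counts therefore do not show whether methylated regions of imprinted loci outside promoters are in the set. The highest WT level of a CpG-dense promoter tile at a maternally methylated imprinted locus was 24.7%. Of 89 covered ribosomal protein genes 83 had a CpG-dense promoter tile, and only Rpl39l had one in the set. Rpl39l, a copy of Rpl39 used in the testis, was at 10.9%, 7.48% and 0.997% in W465A. It was at 49.7%, 17.3% and 45.3% in W465A/W796A (29.7 points, adjusted p 0.0181, quasi-binomial model). Tiles of the set also lie within protocadherin genes, with 7 over the whole length of Pcdha1. Of the 26 covered clustered protocadherin genes, which encode cell adhesion proteins of neurons, 17 had a CpG-dense promoter tile. Only Pcdha8 had one in the set. It was at 4.03%, 1.98% and 2.525% with W465A, at 27.45%, 20.3% and 20.9% with W465A/W796A and at 49.7%, 92.1% and 90.3% with W796A, so that W465A/W796A was above W465A (20.2 points, adjusted p 0.035) and below W796A (-53.5 points, adjusted p 0.00216).

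Coding exons made up 27.9% of the set. Over these 1089 tiles WT averaged 69.2% ± 11.3 (SD, n = 3), W796A 68.6% ± 15.8, W465A 25.65% ± 8.19, W464A/W465A 19.02% ± 2.08, W465A/W796A 53.0% ± 8.07 and the triple mutant 20.5% ± 4.18 (SD, n = 3 each). When W796A was added to W465A 648 of them (59.5%) and 82 of the 161 promoter tiles (50.9%) rose, beside 59.6% of the set and 26.3% of all tiles. When W464A was added to W465A/W796A 91.8% of the coding and 84.5% of the promoter tiles fell, beside 88.1% and 68.4%. When W465A was added to W796A 17.9% and 30.4% fell, beside 23.6% and 23.0%. These shares were not tested against each other. Most tiles had no adjacent tile of the set: there were 3255 single tiles, 290 pairs, 20 runs of 3 and 3 runs of 4 adjacent tiles. A neighbouring tile with too few usable CpGs also breaks a run, and its part in these counts was not tested. The runs of 4 lie in coding exons of Plec, a linker of the cytoskeleton, of Spen, a transcriptional corepressor, and of Lmtk3, a kinase.

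The levels of neighbouring tiles in a run are given by range, and their differences were not tested. In Plec W465A means ran from 32.3% ± 7.88 to 48.0% ± 19.8 (SD, n = 3) over the 4 tiles, the highest with as few as 21 reads in a library, and W465A/W796A means from 60.9% ± 17.3 to 74.9% ± 5.46 (SD, n = 3). In Spen they ran from 12.7% to 32.1% and from 40.1% to 66.9%. In Lmtk3 they ran from 16.3% to 38.4% and from 39.0% to 56.5%. W796A added to W465A was called in 3 of the 4 Plec tiles, all 4 Spen tiles and 2 of the 4 Lmtk3 tiles. This stands beside 26.3% of all tiles and the larger share of the set given above. W464A added to W465A/W796A was called in all 12, beside 88.1% of the set and 68.4% of all tiles. Altogether 1603 genes overlapped a tile of the set. The highest count, 33 tiles, belongs to Gm20388, a readthrough model that spans several genes. Gm37013, Gm37388 and Gm42416, which overlap the Pcdha8 promoter tile, had 10 each. C130026I21Rik, Fat1, a protocadherin gene, and Gse1 had 8 each, and Pcdha1 had 7.

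Tiles with 10 or more usable CpGs were ranked by reads pooled over the libraries of a form, and a few kept much of their methylation in every form. The Klhl25 exon, whose gene encodes an adaptor of a ubiquitin ligase, was at 54.9%, 62.6% and 67.6% with W465A, the highest of these in that form, and at 42.7%, 39.2% and 36.7% with W464A/W465A. Its triple mutant libraries were at 47.9%, 62.0% and 48.3%. Zc3h13, which encodes a part of the RNA adenosine methylation complex, had a coding exon at 63.7%, 56.3% and 55.9% with W465A and at 36.5%, 52.7% and 44.4% with W464A/W465A, the highest there by reads pooled over libraries. Pgbd5, a gene derived from a transposase, had the highest triple mutant level, 50.7%, 57.1% and 57.2%. The tile with the highest W465A/W796A level by pooled reads, 81.5%, 91.7% and 73.6%, lies over the imprinted microRNA genes Mir1197, Mir323 and Mir758, and a coding exon of Tenm2, a teneurin, came next by pooled reads with 87.6%, 85.8% and 61.9%.

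At the other end of the same tiles were some near 0 with W465A. A coding exon tile overlapping Repin1, Gm45021 and Gm44965 was at 40.7%, 56.6% and 50.1% in WT and at 3.90%, 1.97% and 1.71% with W465A, the lowest of these, over 641 to 1594 reads. It was at 39.4%, 13.1% and 20.4% with W465A/W796A (22.1 points above W465A, adjusted p 0.0141) and at 0.759%, 0.464% and 2.59% in the triple mutant. A tile overlapping Cdh15, a cadherin gene, and Gm20388 was the lowest with W464A/W465A, at 0.546%, 2.33% and 1.07%. It was at 4.87%, 0.781% and 2.42% with W465A and at 30.7%, 25.1% and 36.5% with W465A/W796A (28.1 points, adjusted p 0.0109). The lowest of them with W796A was a repeat whose nearest gene is Flrt2, at 11.4%, 11.7% and 20.9%, where WT replicate 3 was at 16.0% and WT replicates 1 and 2 at 50.5% and 66.3%.

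Set beside CpG-poor tiles of like WT level, the set was lower in W465A. Among tiles with a pooled WT level of 70% to 80%, the 866 CpG-dense tiles were at 24.4% ± 7.42 (SD, n = 3) with W465A and the 34468 CpG-poor ones at 30.9% ± 7.12 (SD, n = 3). With W796A the values were 69.6% ± 15.4 and 76.1% ± 13.9, with W465A/W796A 52.2% ± 6.88 and 54.35% ± 4.47, with W464A/W465A 17.3% ± 2.20 and 22.56% ± 2.97, and with the triple mutant 19.9% ± 3.70 and 22.0% ± 2.89 (SD, n = 3 each). Within a library the CpG-dense tiles were the lower ones in all 3 libraries of W465A, W464A/W465A, W796A and the triple mutant, and in 2 of 3 of W465A/W796A. For W464A/W465A the libraries of the classes did not overlap, at 16.04%, 19.84% and 16.01% in the CpG-dense and 20.86%, 25.99% and 20.82% in the CpG-poor tiles. Of the 866 CpG-dense tiles 41.0% were repeat-masked, against 9.59% of the CpG-poor ones. The 451 with no repeat-masked CpG were at 25.7% ± 8.36 with W465A, 72.8% ± 16.45 with W796A and 54.15% ± 7.41 with W465A/W796A (SD, n = 3 each). Their W464A/W465A libraries, at 18.03%, 21.58% and 18.24%, overlapped those of the CpG-poor tiles. Within each W464A/W465A and each W465A library these tiles were still lower than the CpG-poor ones. In W465A/W796A they were lower in replicate 2 only. Their W796A replicate 2 was at 87.56%, against 87.14% in the CpG-poor tiles. W796A replicates 1 and 3 were lower, at 55.07% and 75.78% against 60.47% and 80.71%. At a WT level of 80% to 90% W465A was at 29.95% ± 8.19 in 1075 CpG-dense and 38.5% ± 7.35 in 53475 CpG-poor tiles (SD, n = 3 each). In the 515 of these CpG-dense tiles with no repeat-masked CpG W465A was at 34.6% ± 9.29 (SD, n = 3). W465A/W796A was at 63.7% ± 6.07 in those 515 and at 62.2% ± 4.09 in the CpG-poor tiles (SD, n = 3 each). The WT level chose these bins, and no test was made of the gaps.

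Levels were lower in denser tiles. Among tiles with no repeat-masked CpG the mean with W465A was 26.85% ± 7.86 in 1318 tiles of over 20 to 25 CpGs, 23.0% ± 7.71 in 348 of over 25 to 30 and 19.8% ± 6.74 in 107 of over 30 to 40 (SD, n = 3 each). WT, which the rule used, was at 70.7%, 66.3% and 63.1% in the same bins. W465A/W796A was at 53.3% ± 6.97, 49.35% ± 7.72 and 46.2% ± 9.20 (SD, n = 3 each), so the change over the bins was of the size of the spread between libraries. In each library of W465A and W465A/W796A the level fell with each denser bin.

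CpGs were also split by the bases on either side, and the levels overlapped. In the tiles with no repeat-masked CpG, CpGs with A or T on both sides were at 23.1% ± 7.41 (SD, n = 3) with W465A and at 48.15% ± 8.02 (SD, n = 3) with W465A/W796A. Those with C or G on both sides were at 25.2% ± 7.42 (SD, n = 3) and 52.2% ± 6.89 (SD, n = 3). Sequence words searched on both strands were also counted in the set and in all tiles, whose CpG density is lower: CACGTG in 21.7% against 17.5%, TCCCGC in 28.0% against 22.8% and TGCCGC in 25.8% against 18.8%. CACGTG was in 40.0% of the 810 tiles of shared 31-base words. The 23093 CpG-dense tiles under 50% in WT, whose median density of 38 CpGs is above the 23.5 of the set, held CACGTG in 19.4%, TCCCGC in 61.95% and TGCCGC in 43.6% of cases.

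Tiles at the WT threshold show what the limit of 50% divides. Just inside it, repeat-masked tiles 392863 bp from Defb41 and 428448 bp from Pdcd1, their nearest genes, had a pooled WT level of 50%. Just outside, repeat-masked tiles 232334 bp from 4931417E11Rik and 187593 bp from Ctnnd2 had 49.95% and 49.9%. In all 4, WT replicate 3 was the lowest WT library, at 23.1%, 26.8%, 27.8% and 21.1%. Their W465A/W796A means were 24.3%, 54.9%, 45.4% and 36.6%, and their W465A means 12.97%, 17.3%, 13.2% and 15.1%.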

How the data were processed

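Methylation was measured by eRRBS in 18 libraries, 3 for each of 6 DNMT1 forms. The authors deposited, for each CpG and library, the count of methylated reads and the count of all reads. Cutadapt 1.2.1, Bismark 0.18.1 and Bowtie 1.2 and the mm10 build are named in the submitters' processing notes; how reads in repeats were placed is not given in the sources used here. CpG positions were checked against GRCm38, and annotation came from GENCODE M21.

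Counts were summed over CpGs with at least 5 reads in all 18 libraries in 1000 bp tiles with at least 3 such CpGs. Reads without molecular identifiers are not independent molecules, and the depth of each tile limits its precision. Each of 155660 tiles was fitted with a quasi-binomial logistic model of group over all 18 libraries (12 residual degrees of freedom), with overdispersion squeezed across tiles, F tests and Benjamini-Hochberg adjustment over all tiles. A call needed an adjusted p under 0.05 and a pooled difference of at least 10 points. The scripts were tested on simulated data. Python 3.11.15, numpy 2.4.6, scipy 1.17.1, R 4.3.3, limma 3.58.1 and edgeR 4.0.16 were used, the last 2 for alternatives.

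The tiles and gene lists were chosen with earlier results of these data known. Tiles are named by rule: promoter tiles of listed genes (at most 6 a list in full), the 3 largest called differences without overlap in each comparison without WT, the 2 highest and the lowest tile of each mutant among those with 10 or more usable CpGs, the tiles nearest the WT threshold, and the longest runs of adjacent tiles. Alternatives covered read minimum, CpGs per tile, tile size, minimum difference, density, WT level, tool, squeezing, samples in the fit, replicate block and leaving out each library. By correlations of their deviations, same-numbered libraries deviated together only between WT and W796A (0.144 to 0.264). There the blocked counts are given beside the unblocked ones. Tiles on the sex chromosomes were left out of the set.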

Additional observations from a re-analysis of the deposited data

How the results depend on the processing

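Of the values recomputed under an alternative 229 stayed on their side of the limits and 36 moved, and none changed direction. The alternatives for W796A against WT, those for the tiles higher than W796A, and those restricted to tiles with no repeat-masked CpG, were chosen after seeing the data. The share called when W796A was added to W465A was 59.6%, 27.75% with limma, 24.9% without squeezing and 0.0% to 68.2% leaving out 1 library. When W464A was added to W465A/W796A it was 57.2% to 92.7% leaving out 1 library, and when W464A/W465A was added to W796A 80.6% to 97.3%. When W465A was added to W796A it was 15.5% with limma, 13.7% without squeezing, 0.0% with the compared groups alone and 4.94% to 63.5% leaving out 1 library. The direct test of the W796A difference between backgrounds gave 14.3% with the compared groups alone and 0.0% leaving out any 1 library. Tiles higher than W796A were 0.2825% of the set chosen at 70% in WT, 1.08% at 10 reads or more, 0.0% with the compared groups alone, 1.05% with edgeR, 0.358% with limma, 0.0% with no repeat-masked CpG, 0.589% without squeezing, 3.86% at over 30 CpGs and 0.179% to 4.12% leaving out 1 library. The mean WT level was 79.3% at 70% in WT. That of W464A/W465A was 19.5% at 70% in WT, 19.02% with no repeat-masked CpG and 12.15% at over 30 CpGs, and that of the triple mutant 16.1% at over 30 CpGs. Leaving out 1 library, mean levels were 67.6% to 71.6% in WT, 56.8% to 72.2% in W796A, 19.6% to 26.3% in W465A, 15.4% to 18.3% in W464A/W465A, 47.15% to 54.5% in W465A/W796A and 17.9% to 21.4% in the triple mutant. Apart from what a setting itself changes (fewer libraries or other tiles), the cause was not tested.

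By correlations of their deviations, same-numbered libraries did not deviate together in the comparisons without WT. The numbers are therefore not taken to pair them. Mean levels over the set did share an order in some of these comparisons. Replicate 1 was highest and replicate 2 lowest in both W465A and W465A/W796A. Replicate 2 was highest in W796A, W464A/W465A and the triple mutant. A block common to all groups cannot follow orders that differ between groups. Whether these orders reflect pairing was not tested. With the number as a replicate block the shares called were 53.65% (W796A added to W465A), 86.2% (W464A added to W465A/W796A), 21.1% (W465A added to W796A), 86.8% (W464A/W465A added to W796A) and 0.0% in the other 3, and 1.66% were higher than W796A. In none of these comparisons did every library correlate best with its own number. Only between WT and W796A did each do so, with same-number correlations of 0.144 to 0.264, and there the block gave 0.0512% of the set in the fit of all groups and 0.0% in these 2 groups alone, against 0.0% without it.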

Other observations

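The 154 tiles on the X chromosome that met the same density and WT rules lie outside the autosomal set. WT libraries were at 60.5%, 77.5% and 54.7% there and W796A libraries at 40.0%, 67.3% and 54.45%. W465A libraries were at 25.1%, 15.6% and 16.3% and W465A/W796A libraries at 52.9%, 38.9% and 47.3%, which do not overlap. W464A/W465A was at 12.6% ± 2.44 (SD, n = 3) and the triple mutant at 17.2% ± 3.28 (SD, n = 3).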
